A study of Mus musculus with 6 samples.

Results

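Chemokine ligands and their receptors were described across the cell classes of 2 single-cell preparations of the adult mouse brain border. The genes were all symbols that begin with Ccl, Cxcl, Ccr, Cxcr or Ackr and a digit, with Cx3cl1, Cx3cr1, Xcl1 and Xcr1 added. Of the 31053 genes in the files, 67 entries with 62 different symbols followed this rule. No UMI was found for 9 of them and 1 to 19 UMIs for another 8, and these were only counted. The remaining 50, made up of 30 ligands and 20 receptors, held 295825 UMIs and are the subject here. A UMI (unique molecular identifier) marks 1 captured mRNA molecule.

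All mice were adults with the genotype label C57BL6, and the labels give no transgene or treatment. The 4 cortical surface libraries (tissue label Brain) came from the top of the cortex with its leptomeninges, the thin inner membranes of the brain. The 2 bone-associated libraries (tissue label Dura/Skull) came from the tissue attached to the skull, which includes the dura, the thick outer membrane. Each library pooled several mice of both sexes, so the library is the replicate and variation between mice was not measured. The p-values rest on the spread between these libraries, estimated with information shared over genes, and do not cover variation between mice. Live nucleated cells were sorted from both tissues, and the mice had not been perfused, so blood cells could be among them. Collagenase D and dispase II are named for the dissociation of these membranes in the paper, whereas the protocol in the sample labels names papain and a brain region, the V-SVZ, so that protocol may not describe these libraries. Gene differences between preparations therefore compare 2 dissections, and tissue and dissection cannot be told apart.

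Chemokines are small secreted proteins, a few of them anchored to membranes, that attract leukocytes along a gradient through G protein-coupled receptors. Homeostatic chemokines such as Cxcl12 and Ccl19 position cells in resting tissue, whereas inflammatory chemokines such as Ccl2, Cxcl1 and Cxcl10 are induced by injury, infection or cytokines. Most ligands bind several receptors and most receptors bind several ligands. The atypical receptors, named Ackr, bind chemokines without the usual G protein signal and act as scavengers or depots. In the brain, Cx3cr1 on microglia is the textbook receptor, and the membranes around the brain are known to hold macrophages and other immune cells that use many of the others.

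Many of the genes lie side by side (mm10, GENCODE M21 coordinates). Ccl2, Ccl7, Ccl11, Ccl12, Ccl8 and Ccl1 occupy chr11:82035571-82305690, and Ccl5, Ccl9, Ccl6, Ccl3 and Ccl4 occupy chr11:83525778-83664683. Cxcl5, Cxcl3, Cxcl1 and Cxcl2 lie at chr5:90759360-90905938, and Cxcl9 and Cxcl10 at chr5:92321347-92348889. The receptors Ccr9, Cxcr6, Xcr1, Ccr1, Ccr3 and Ccr2 lie near each other on chromosome 9.

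After filters, 739 to 2452 cells per library remained, with a median of 5481 to 9556 UMIs per cell. Cells were clustered without the chemokine genes, and clusters were named from markers that include none of them. No chemokine gene therefore set a class directly, although other genes that vary with it could. Every class name below means "like", and 204 cortical surface cells stayed unnamed. Clusters of microglia-like cells (756) and MHC class II macrophage-like cells (294) were named in the cortical surface libraries alone. Mast cell-like, Schwann-like and pro- and pre-B cell-like clusters were named in the bone-associated libraries alone. At most 9 cell barcodes were shared by any pair of libraries. Cortical surface libraries 3 and 4 stood apart: hemoglobin genes held 17.7% and 11.9% of their UMIs, against 0.098% to 0.42% in the other libraries, and they held none of the cortical surface VSMC-like cells. In most classes they were also lower than cortical surface libraries 1 and 2 in immediate-early genes, which tissue dissociation can induce. Cortical surface libraries 1 and 2, in turn, had too few neutrophil-, ILC2- and gamma-delta T cell-like cells to enter. Levels are CPM values, the usual scaling of counts by the total of the class in the library, here without hemoglobin genes, and only libraries with at least 10 cells of the class were used.

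Of the 50 genes, 41 (26 ligands and 15 receptors) reached 50 CPM in at least 1 of 35 groups of cells, a group being a class in 1 preparation, with the endothelial subtypes counted within their class. The other 9 stayed under 50 CPM in every group: Ccl25, Cxcl3, Cxcl5, Cxcl13, Ccr3, Ccr4, Ccr6, Ccr10 and Ackr4. Most genes were high in a few related classes, as the heat map of all levels shows, and 5 genes passed 50 CPM in 1 group only.

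**Figure D1:**
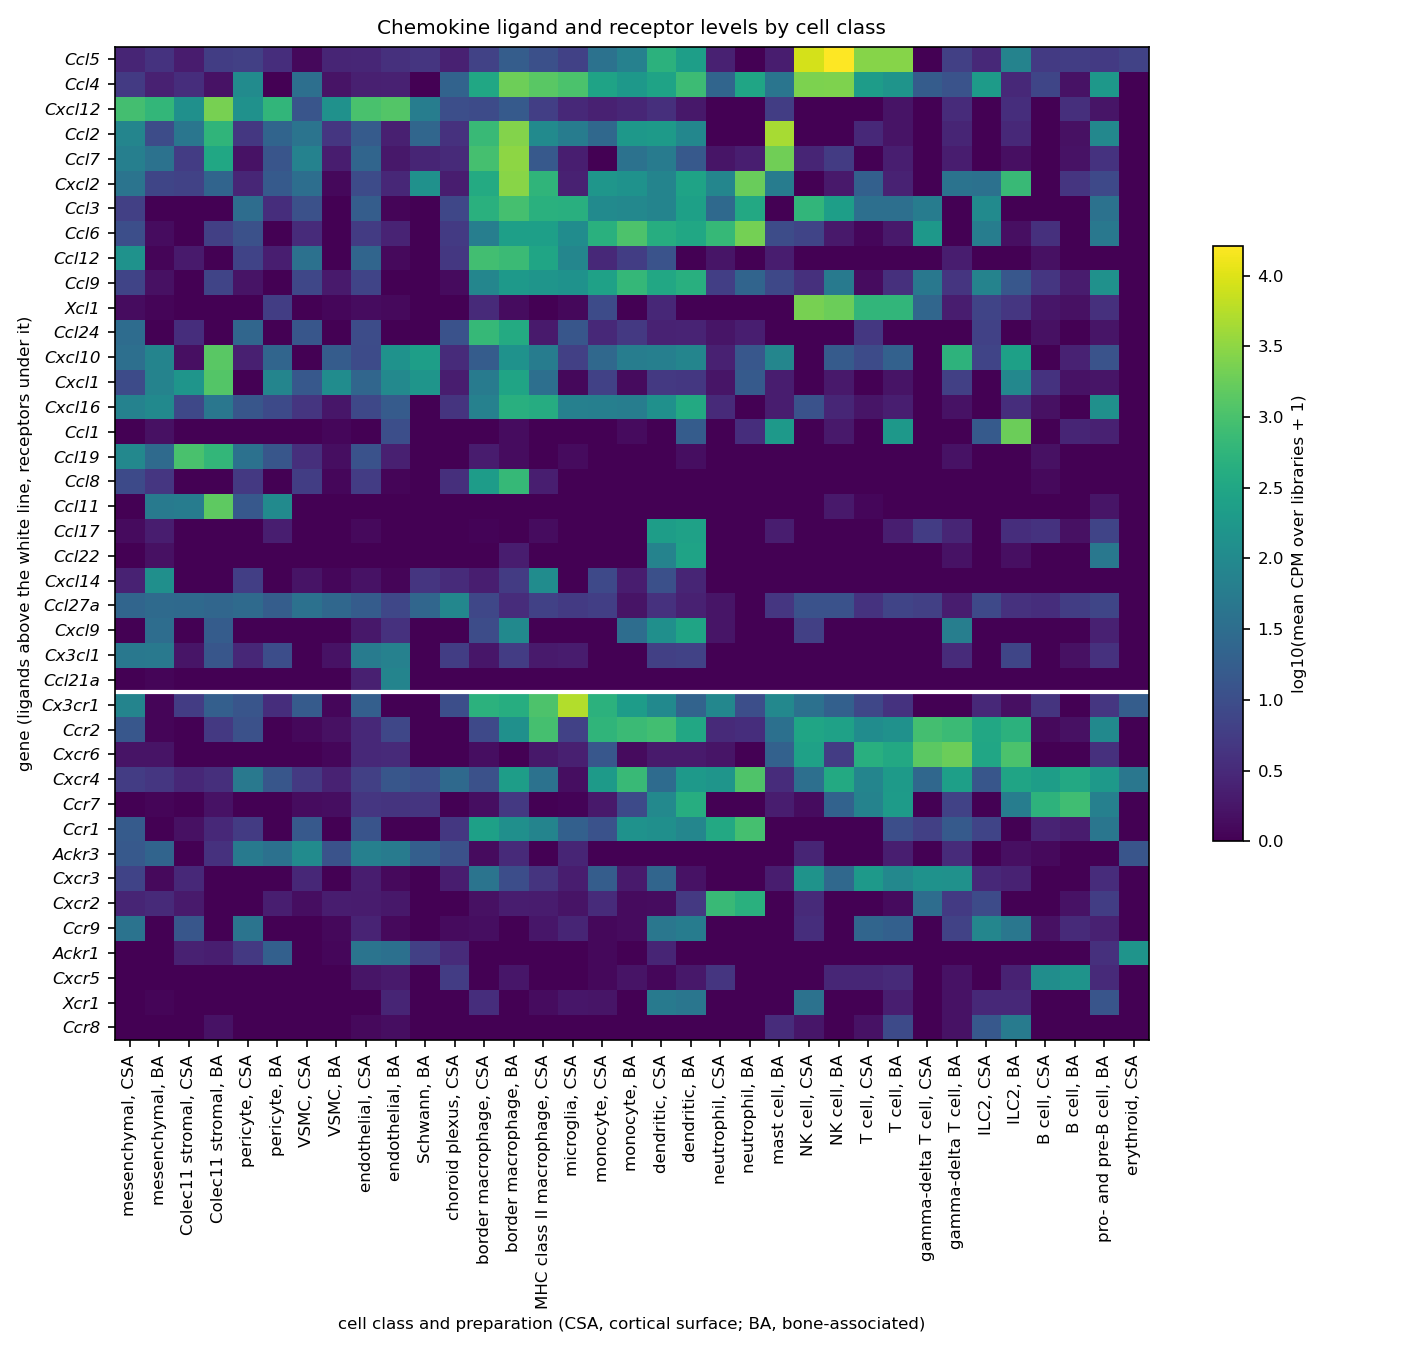
Each row is a gene and each column a cell class in 1 preparation, and color gives log10 of the mean CPM over libraries plus 1. Ligands stand above the white line and receptors under it, and the brightest fields are Ccl5 in NK cell-like cells, Cx3cr1 in microglia-like cells and Ccl2 in mast cell-like cells.

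Cxcl12, the ligand that holds leukocytes and progenitors in place through Cxcr4, was high in mesenchymal-like and endothelial-like cells of both preparations. In the cortical surface it was lower in pericyte-like and Colec11 stromal-like cells, at means of 135 and 131 CPM. Its level was 914 ± 246 CPM (SD, n = 4) in cortical surface mesenchymal-like cells and 603 ± 128 CPM (SD, n = 2) in bone-associated ones. Endothelial-like cells held 1011 ± 207 CPM (SD, n = 4) in the cortical surface and 1203 ± 359 CPM (SD, n = 2) in the bone-associated libraries. For both classes the groups overlapped and no call was made (adjusted p = 0.17 and 0.51, edgeR). Ccl19, a ligand of Ccr7, was a gene of the stromal cells marked by Colec11, with 1704, 1160.5, 587 and 526 CPM in cortical surface libraries 1 to 4 and 660.4 and 569 CPM in bone-associated libraries 1 and 2. Its levels overlapped between preparations there (adjusted p = 0.45, edgeR). Ccl21a, another ligand of Ccr7, was seen at 0 and 157 CPM in the 2 bone-associated endothelial-like groups, and a single cell held 37.3% of its UMIs. Ccr7 itself was highest in B cell-like cells, at 839 ± 283 CPM (SD, n = 2) in the bone-associated and 533 ± 486 CPM (SD, n = 4) in the cortical surface libraries.

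Cx3cl1, a membrane-anchored ligand, was an endothelial gene at 69.7 ± 2.71 CPM (SD, n = 2) in bone-associated and 55.7 ± 28 CPM (SD, n = 4) in cortical surface libraries. Its receptor Cx3cr1 was at 5071, 4128, 5939 and 6091 CPM in microglia-like cells of cortical surface libraries 1 to 4. MHC class II macrophage-like cells followed with 1047, 854, 1180.1 and 1196 CPM, a range that did not overlap with that of microglia-like cells. The Cx3cr1 gene model also covers Gorasp1, Csrnp1 and Xirp1 on its strand, so its counts carry that uncertainty. Cxcl16, also anchored to membranes, was found in border macrophage-like cells of the bone-associated libraries at 461 ± 51.3 CPM (SD, n = 2) and in MHC class II macrophage-like cells at 401 ± 72.1 CPM (SD, n = 4), with SD ranges that overlap. Cxcr6, which binds it and keeps lymphocytes in tissues, was a gene of gamma-delta T cell-like cells, with 1826 ± 727 CPM (SD, n = 2) in bone-associated and 1430.1 ± 71.7 CPM (SD, n = 2) in cortical surface libraries. T cell-like cells held Cxcr6 at 455 ± 126 CPM (SD, n = 4) and 352 ± 55.1 CPM (SD, n = 2) in the cortical surface and bone-associated libraries.

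The monocyte-attracting ligands Ccl2, Ccl7 and Ccl12, which bind Ccr2, were high in border macrophage-like cells, and Ccl2 and Ccl7 also in mast cell-like cells. Ccl2 was at 4046 and 5159 CPM and Ccl7 at 1530.5 and 2446 CPM in the mast cell-like cells of bone-associated libraries 1 and 2. The immediate-early genes, which tissue dissociation can induce (Fos, Jun, Egr1 and others of a list of 18), summed to 64950.0 to 78074 CPM in the same cells, more than in any other class, and their part in the ligand levels was not tested. Ccl12 was at 656, 956, 714 and 1088 CPM in cortical surface and 411 and 1059.6 CPM in bone-associated border macrophage-like cells, which overlapped. Their receptor Ccr2 was at 939 ± 118 CPM (SD, n = 4) in MHC class II macrophage-like cells and 881 ± 7.27 CPM (SD, n = 2) in cortical surface gamma-delta T cell-like cells, levels that did not differ beyond their spread. Monocyte-like cells held Ccr2 at 578 ± 178 CPM (SD, n = 4) and 729 ± 13 CPM (SD, n = 2), and dendritic-like cells at 858 ± 298 CPM (SD, n = 4) and 339 ± 36.8 CPM (SD, n = 2), in the cortical surface and bone-associated libraries. NK cell-like cells held 296 and 256 CPM of Ccr2, T cell-like cells of the cortical surface 113 CPM, and ILC2-like cells 330.4 and 511 CPM.

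Ccl5, a ligand of Ccr1 made by cytotoxic lymphocytes, was the NK cell chemokine of the data. Cortical surface libraries 1 to 4 held 7570.4, 4886, 9851 and 11999.7 CPM and bone-associated libraries 1 and 2 16429 and 16199.9 CPM in NK cell-like cells, with every bone-associated value above the others but a log2 fold change of -0.99 ± 0.28 (SE) and an adjusted p of 0.050 (edgeR). T cell-like cells held 2828 ± 940.0 CPM (SD, n = 4) and 2759 ± 109 CPM (SD, n = 2), which overlapped. Xcl1, the ligand that draws cross-presenting dendritic cells through Xcr1, was at 2232 ± 892 CPM (SD, n = 4) and 1877 ± 299 CPM (SD, n = 2) in NK cell-like cells and at 599 ± 320.1 CPM (SD, n = 4) and 602 ± 137 CPM (SD, n = 2) in T cell-like cells of the cortical surface and bone-associated libraries. Xcr1 was a dendritic gene, at 0, 193, 8.71 and 5.51 CPM in cortical surface and 58.3 and 30.6 CPM in bone-associated libraries. Cortical surface library 2, with 13 such cells, held the highest of these values, and the means therefore rest on 1 small group of cells.

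Ccl3 and Ccl4 are inflammatory ligands, and Ccl3 binds Ccr1. Ccl4 was at 2415 ± 585 CPM (SD, n = 4) and 2519 ± 1562 CPM (SD, n = 2) in NK cell-like cells of the cortical surface and bone-associated libraries. MHC class II macrophage-like cells held Ccl4 at 1349 ± 868 CPM (SD, n = 4) and Ccl3 at 469 ± 358 CPM (SD, n = 4), and microglia-like cells Ccl4 at 1037 ± 561 CPM (SD, n = 4) and Ccl3 at 451 ± 238 CPM (SD, n = 4). Ccl3 was highest in border macrophage-like cells of the bone-associated libraries, at 921 ± 133 CPM (SD, n = 2).

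Ccl6 and Ccl9, ligands of Ccr1, were high in monocyte-like and dendritic-like cells, and Ccl6 also in neutrophil-like cells. Neutrophil-like cells held 672 ± 151 CPM (SD, n = 2) of Ccl6 in the cortical surface and 2111 ± 637 CPM (SD, n = 2) in the bone-associated libraries. Their Ccl9 was at 5.6 and 4.39 CPM in the former and 0 and 44.2 CPM in the latter. Ccl6 was at 468 ± 246 CPM (SD, n = 4) and 1092 ± 34.1 CPM (SD, n = 2) in monocyte-like cells of the cortical surface and bone-associated libraries, with adjusted p = 0.054 (edgeR). Ccl9 was at 257 ± 135 CPM (SD, n = 4) and 646 ± 251 CPM (SD, n = 2) in the same classes (adjusted p = 0.063). Dendritic-like cells held Ccl9 at 336 ± 71.5 CPM (SD, n = 4) and 447 ± 50.7 CPM (SD, n = 2), and cortical surface dendritic-like cells held Ccl6 at 413 ± 92.5 CPM (SD, n = 4). Microglia-like cells held Ccl9 at 140.4 ± 17.3 CPM (SD, n = 4). Ccr1 was at 352 ± 80.1 CPM (SD, n = 2) and 923 ± 246 CPM (SD, n = 2) in neutrophil-like cells and 123 ± 63.8 CPM (SD, n = 4) in cortical surface dendritic-like cells.

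Cxcl1 and Cxcl2 recruit neutrophils through Cxcr2. Cxcr2 marked neutrophil-like cells, with 846 and 567 CPM in cortical surface libraries 3 and 4 and 439 and 502 CPM in bone-associated libraries 1 and 2, and it was under 50 CPM in every other class. MHC class II macrophage-like cells held Cxcl2 at 559 ± 496 CPM (SD, n = 4). Cxcl9 and Cxcl10 are interferon-induced ligands of Cxcr3. Bone-associated dendritic-like cells held Cxcl9 at 291 ± 194 CPM (SD, n = 2), with 45.6% of the UMIs in a single cell. Cxcr3 was at 185 ± 26.5 CPM (SD, n = 4) in T cell-like and 139.9 ± 52.9 CPM (SD, n = 2) in gamma-delta T cell-like cells of the cortical surface.

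Some genes passed 50 CPM in 1 class only. Ccl17 and Ccl22, ligands of Ccr4, were dendritic genes. Bone-associated libraries 1 and 2 held 89.5 and 429 CPM of Ccl17 and 71.9 and 482 CPM of Ccl22 in dendritic-like cells, and cortical surface libraries 1 to 4 held 4.0, 46.5, 757 and 72.4 CPM and 104, 7.16, 183 and 3.94 CPM. In the bone-associated pair, library 2 held most of each. Ccl24, a ligand of Ccr3, was at 639.8, 666, 685 and 666 CPM in cortical surface border macrophage-like cells. Bone-associated border macrophage-like cells held 166 and 588 CPM of Ccl24. Ccl27a, a ligand of Ccr10, was at 108, 75.2 and 81.1 CPM in choroid plexus-like cells of cortical surface libraries 2 to 4. Ackr1, the depot receptor of venules and red cells, was at 171 and 129 CPM in erythroid-like cells of cortical surface libraries 3 and 4. It stayed under 50 CPM in endothelial-like cells as a class but not in each of their subtypes, at 193, 141, 37.2 and 50 CPM in cortical surface Plvap and 108 and 115 CPM in bone-associated barrier capillary endothelial-like cells. Cxcr5, which guides B cells into follicles, was at 144 ± 36.7 CPM (SD, n = 2) and 113 ± 80.0 CPM (SD, n = 4) in B cell-like cells of the bone-associated and cortical surface libraries.

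Several class means rested on single cells. In cortical surface pericyte-like cells, Ccl4 averaged 108 CPM, yet 99.4% of its UMIs were in 1 cell. In the same way 1 cell held 69.9% of the dendritic-like Ccl5 UMIs of the cortical surface (mean 512 CPM), 94.5% of the T cell-like Ccl1 UMIs of the bone-associated libraries (mean 173 CPM) and 82.7% of the gamma-delta T cell-like Cxcl10 UMIs there (mean 521 CPM). A single cell also held 57.1% of the Cxcl9 UMIs of the last class (mean 63.3 CPM). In cortical surface ILC2-like cells, Ccl4, Ccl3 and Ccl9 (means of 202, 102 and 77 CPM) had 79.3%, 85.2% and 68.9% of their UMIs in 1 cell. All UMIs of Ccl6 and Ccl3 in cortical surface gamma-delta T cell-like cells (means of 172 and 57.4 CPM) came from 1 cell.

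Further means from 1 library or few cells were these. Ccl4 was at 875, 177, 7.51 and 56.6 CPM in cortical surface monocyte-like cells, and Ccl7 at 3.67 and 141 CPM in VSMC-like cells of cortical surface libraries 1 and 2. Ccl12 was at 20.1, 92.5, 447 and 0 CPM and Cx3cr1 at 17, 40.7, 128 and 134 CPM in cortical surface mesenchymal-like cells. Schwann-like cells of bone-associated libraries 1 and 2 held 344 and 120.1 CPM of Cxcl10, 244 and 74.2 CPM of Cxcl1 and 244 and 21.2 CPM of Cxcl2. Pro- and pre-B cell-like cells held 183 ± 66.4 CPM (SD, n = 2) of Cxcr4 and 68 ± 54.3 CPM (SD, n = 2) of Ccr7, both receptors of the B lineage. In the same cells Ccr2 was at 35.5 and 164 CPM, Ccl4 at 29.6 and 326 CPM, Ccl9 at 108 and 155 CPM and Cxcl16 at 174 and 87.7 CPM.

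The preparations were compared within each class that had at least 2 libraries on both sides. This asks whether cells of 1 class name differ in chemokine genes between the 2 dissections, not between dura and leptomeninges alone. The cortical surface dissection also held microglia-like cells, the bone-associated one pro- and pre-B cell-like cells, and blood cells could be in both. Counts were summed per library and tested with edgeR's quasi-likelihood test over all genes detected in over 10% of cells on either side. Calls required a log2 fold change of 1.3 or more in either direction together with a p under 0.05 after Benjamini-Hochberg adjustment. Over 14 classes, 131 tests of 40 chemokine genes gave 58 calls of 28 genes. The bone-associated libraries were higher in 49 calls and the cortical surface libraries in 9. Of these tests 44.3% were called, against 7.37% of all gene tests in the same fits. The filter let a gene enter through the side where it was higher, and its part in these shares was not tested. The totals and both shares include Colec11 stromal-, ILC2- and gamma-delta T cell-like cells, which were added after their levels had been seen. All calls in those classes were higher in the bone-associated libraries. Leukocyte receptors, stromal ligands and macrophage ligands all took part, as the plot of fold changes shows.

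**Figure D2:**
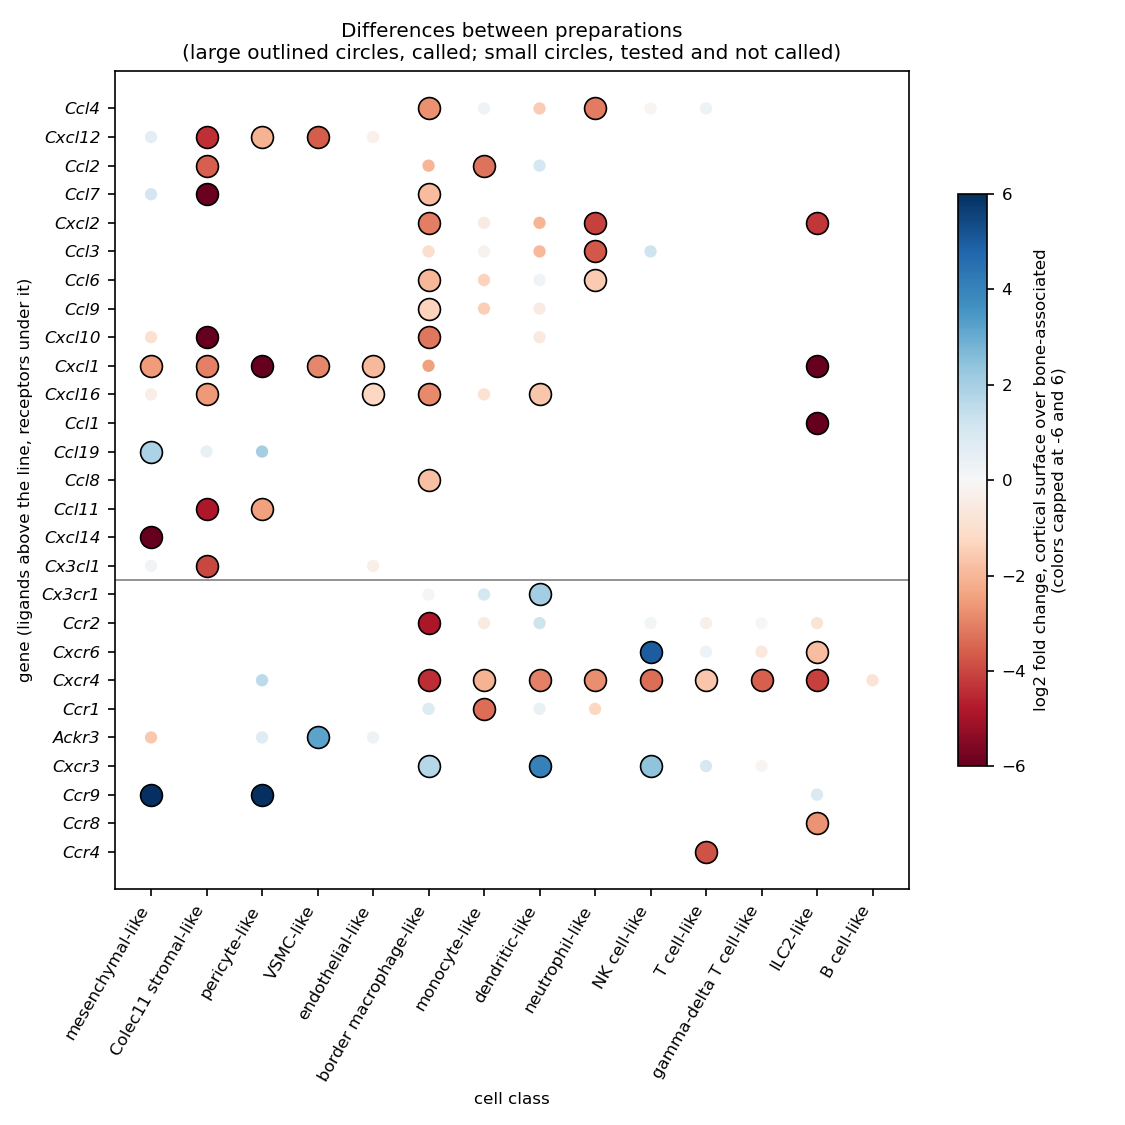
Rows are chemokine genes called in at least 1 class, columns are classes, and color gives the log2 fold change of cortical surface over bone-associated libraries, capped at -6 and 6. Large outlined circles are calls and small circles are tests without a call; most calls shown are red, higher in the bone-associated libraries, and the Cxcr4 row holds 8 calls.

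Cxcr4, the receptor of Cxcl12, was tested in 10 classes. It was higher in the bone-associated libraries in 8 of them, and the fold change had that direction in 9. In border macrophage-like cells it was at 11.8, 10.6, 9.13 and 8.51 CPM in cortical surface libraries 1 to 4 and at 285 and 155 CPM in bone-associated libraries 1 and 2, a 21.5-fold difference (log2 fold change -4.43 ± 0.27 (SE), adjusted p = 1.34e-05, edgeR). The groups were far from overlapping. NK cell-like cells held 12.6, 48.7, 45.6 and 29.3 against 306 and 405 CPM (10.3-fold, adjusted p = 6.21e-05), and dendritic-like cells 56, 39.4, 4.35 and 15 against 184 and 175 CPM (8.18-fold, adjusted p = 0.003). Neither pair of groups overlapped.

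Neutrophil-like cells held Cxcr4 at 207 and 108 CPM in cortical surface libraries 3 and 4 and 1325 and 902 CPM in bone-associated libraries 1 and 2 (6.82-fold, adjusted p = 1.98e-05, edgeR). Monocyte-like cells held 149.6, 393, 141 and 103 against 886 and 532 CPM (4.3-fold, adjusted p = 0.009). In both classes the lowest bone-associated value was above the highest cortical surface value. ILC2-like cells held 0 and 25 against 352 and 223 CPM (17.4-fold, adjusted p = 4.08e-05), and gamma-delta T cell-like cells 20.9 and 28 against 176 and 294 CPM (12-fold, adjusted p = 0.000249). In T cell-like cells the values of 76.1, 168, 44.3 and 34.8 against 167 and 226 CPM overlapped (3.12-fold, adjusted p = 0.021), and with cortical surface libraries 1 and 2 alone Cxcr4 was not called. B cell-like cells (257, 368, 123 and 142 against 293 and 400.2 CPM) and pericyte-like cells (89.9, 39.9, 23.7 and 40.7 against 9.7 and 15.6 CPM) were not called, with adjusted p of 0.15 and 0.13. Pericyte-like cells were the class in which the cortical surface values were the higher ones.

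**Figure D3:**
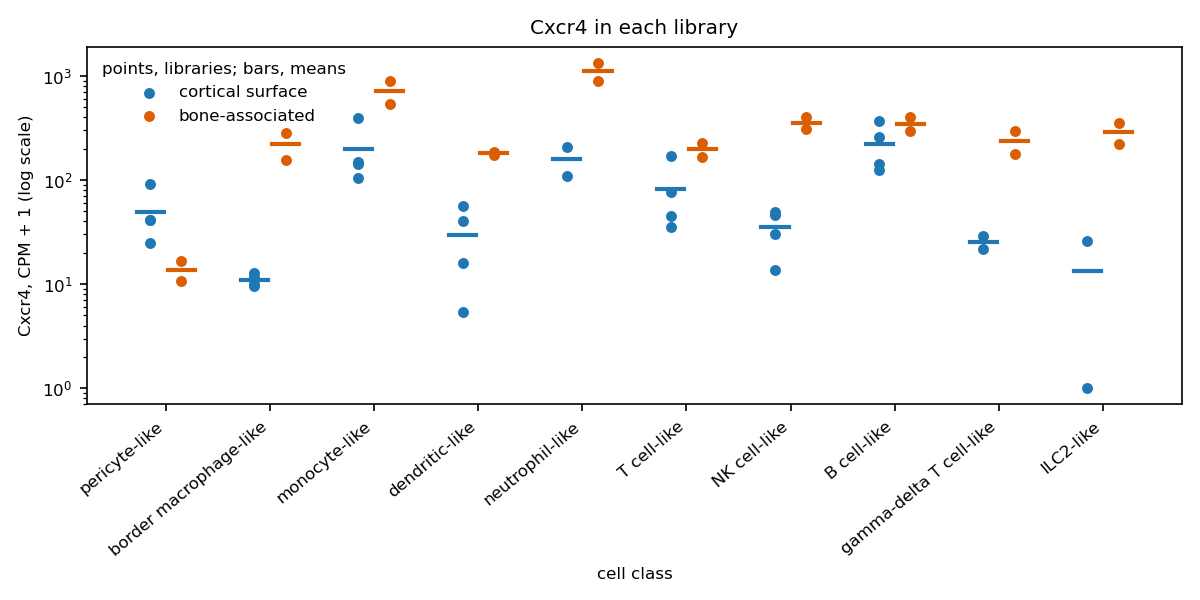
Cxcr4 in the 10 classes in which it was tested, as CPM plus 1 on a log axis, with a point per library and a bar at the mean of each preparation. Bone-associated points lie above all cortical surface points in 7 leukocyte classes, overlap them in T cell-like and B cell-like cells, and lie under them in pericyte-like cells.

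Border macrophage-like cells, named after the resident macrophages of the brain's membranes and vessels, had the most calls of any class. Of their cortical surface cells, 162 formed a cluster with a median of 1769 UMIs, and libraries 1 to 4 held 2, 10, 71 and 79 of these. The bone-associated median was 12976.5 UMIs. In a fit without this cluster, the median log2 fold change of the chemokine genes tested was -1.97, against -1.95 with it. Of 20 chemokine genes tested, 12 were called, 11 of them higher in the bone-associated libraries, where 6.66% of all genes tested were called. The count of called chemokine genes was 13 with cortical surface libraries 1 and 2 alone and 14 with libraries 3 and 4 alone, but 6 without bone-associated library 2 and 5 with every cell thinned to 1500 UMIs. Inflammatory ligands were among them: Cxcl2 was at 544, 654, 98.6 and 177 CPM in the cortical surface and 2718 and 3052 CPM in the bone-associated libraries (8.5-fold, adjusted p = 0.008, edgeR). Ccl4 was at 655, 395, 69.4 and 159 against 2276 and 1628 CPM (6.6-fold, adjusted p = 0.021). For both, every bone-associated value exceeded every cortical surface value, and cortical surface libraries 1 and 2 were higher than libraries 3 and 4.

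Ccl7, which draws monocytes, was at 952, 1633, 371 and 749 against 3051 and 3215 CPM in the same comparison (3.69-fold, adjusted p = 0.025, edgeR). Ccl8, which in mice binds Ccr8, was at 88.5, 202, 152 and 413 against 516 and 817 CPM (3.53-fold, adjusted p = 0.036). Cxcl16 was at 64.4, 55.7, 80.4 and 80.8 against 425 and 497 CPM (7.45-fold, adjusted p = 4.09e-05), a difference far larger than the spread on either side. Ccl6 rose 4.03-fold (adjusted p = 0.00028) and Ccl9 2.63-fold (adjusted p = 0.023), the smallest called change of the class. With cortical surface libraries 1 and 2 alone, Ccl9 was not called. Ccl2 was at 997, 1283, 197 and 367 against 2267 and 3137 CPM with an adjusted p of 0.051, which was no call, although the groups did not overlap.

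Cxcl10 was at 37.5, 22.9, 1.83 and 0 CPM in the cortical surface and 8.75 and 272 CPM in the bone-associated border macrophage-like cells. It was called (adjusted p = 0.035, edgeR), but the groups overlapped, and without bone-associated library 2 the log2 fold change turned to 1.15, higher in the cortical surface libraries. Ccl24, Ccl12, Ccr1 and Cx3cr1 were not called.

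Ccr2, the receptor that monocytes follow to Ccl2 and Ccl7, moved the same way in border macrophage-like cells. It was at 2.11, 1.23, 23.7 and 2.84 CPM in the cortical surface and 171 and 88.6 CPM in the bone-associated libraries (30.3-fold, adjusted p = 0.001, edgeR). Every bone-associated value was above every cortical surface value, with cortical surface library 3 the highest on its side. The paper lists Ccr2 among its dural macrophage markers and describes leptomeningeal macrophages as transcriptionally distinct from dural ones. Cxcr3 was the exception, at 43, 53.2, 25.6 and 42.5 CPM in the cortical surface and 4.38 and 13.6 CPM in the bone-associated libraries (3.25-fold lower in the latter, adjusted p = 0.034), and it was not called with cortical surface libraries 3 and 4 alone (log2 fold change 1.34).

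Other gene groups moved with this comparison. The 10 border macrophage markers, all of them detected on both sides, summed to 12301 to 14722 CPM in the cortical surface and 7308 to 7699 CPM in the bone-associated cells. The 8 MHC class II macrophage markers, all of them detected, summed to 50712 to 65451 CPM in the former and 68008 to 71524 CPM in the latter, against 87610.0 to 102510.0 CPM in the MHC class II macrophage-like cells. The 9 monocyte markers summed to 11 to 54.8 CPM with 6 detected and to 58.2 to 236 CPM with 7 detected, against 8693 to 8767 CPM in bone-associated monocyte-like cells. Immediate-early genes summed to 43583, 42113, 12631 and 16852 CPM in cortical surface libraries 1 to 4 and 18440.2 and 31318 CPM in bone-associated libraries 1 and 2. The bone-associated sums lay under those of cortical surface libraries 1 and 2 and above those of libraries 3 and 4, and their part in the differences was not tested. Library 1 of the bone-associated preparation had 16 of these cells and library 2 had 98. The cells compared thus differed in the markers that name the class, and the calls may compare unlike macrophages under 1 name. The part of this in the chemokine differences was not tested.

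**Figure D4:**
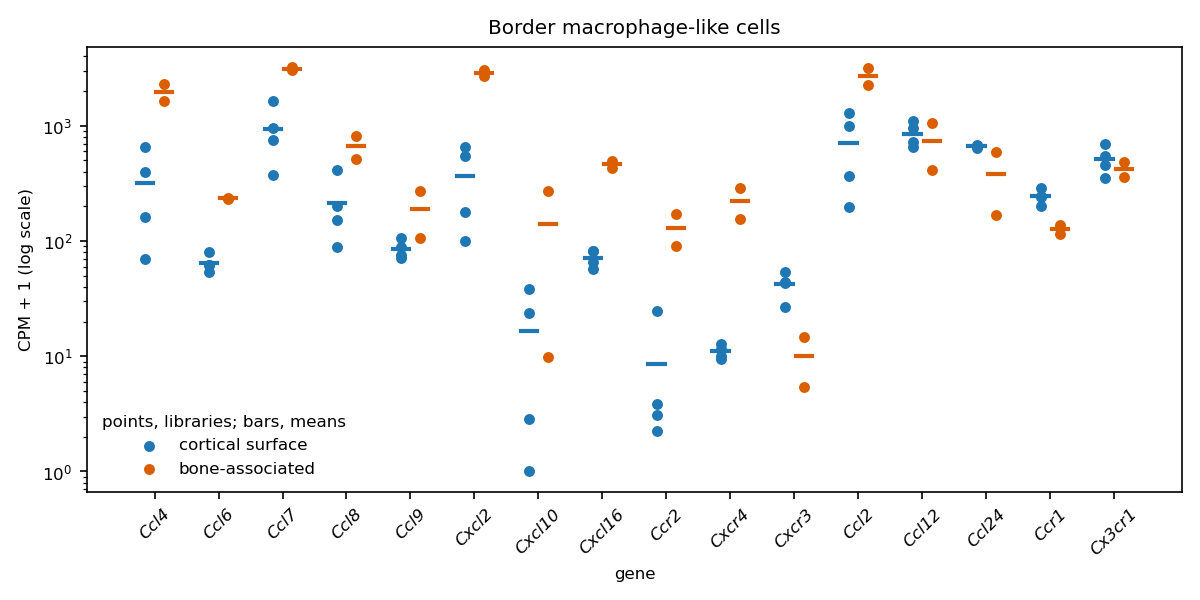
Chemokine genes in border macrophage-like cells, as CPM plus 1 on a log axis, with a point per library (4 cortical surface, 2 bone-associated) and a bar at each mean. The first 11 genes were called and the last 5 (Ccl2, Ccl12, Ccl24, Ccr1, Cx3cr1) were not; Cxcl10 is the called gene whose points overlap and Cxcr3 the one that is lower in the bone-associated libraries.

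Stromal cells led by Colec11, a secreted lectin, had 8 of 10 chemokine genes called, all higher in the bone-associated libraries, where 12% of all genes tested were called. This class, like ILC2-like and gamma-delta T cell-like cells, was added to the comparisons after its levels had been seen. Cxcl12 was at 91.3, 128, 143 and 161 CPM in cortical surface libraries 1 to 4 and 2433 and 2053 CPM in bone-associated libraries 1 and 2 (20.7-fold, adjusted p = 1.84e-10, edgeR). Cxcl10 was at 0, 1.89, 0 and 0 against 1325 and 1367 CPM. With a single cortical surface UMI, the counted ratio was 1962-fold (95% exact counting interval 352 to 77524). Ccl11, a ligand of Ccr3, was at 37.9, 92.5, 33.5 and 65.1 against 1359 and 1633 CPM (28.9-fold, adjusted p = 2.73e-10). None of the 3 had overlapping groups.

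The monocyte-attracting pair showed the same direction in these cells. Ccl7 was at 2.23, 13.2, 0 and 2.83 against 386 and 267 CPM (60.4-fold, adjusted p = 1.47e-09, edgeR). Ccl2 was at 75.7, 98.1, 0 and 5.66 against 439 and 682 CPM (12.1-fold, adjusted p = 7.46e-06). Cxcl1, which draws neutrophils, was at 172, 419, 8.39 and 36.8 against 1456 and 1017 CPM (8.15-fold, adjusted p = 0.000314). For Ccl2 and Cxcl1 the cortical surface values of libraries 1 and 2 were above those of libraries 3 and 4, and for all 3 genes every bone-associated value was higher still. The membrane-anchored ligands were lower: Cxcl16 was at 4.46, 13.2, 0 and 11.3 against 44.3 and 46.7 CPM (6.0-fold, adjusted p = 0.000386), and Cx3cl1, with 1 cortical surface UMI against 17, had a counted ratio of 19.5-fold (95% exact counting interval 3.05 to 814). Cx3cl1 was not called with cortical surface libraries 3 and 4 alone. The 3 markers that name the class summed to 1472 to 1753 CPM in its cortical surface and 1059 to 1247 CPM in its bone-associated cells. Pericyte-like cells held 623 to 913 and 636 to 1203 CPM of the same markers. In the bone-associated libraries these markers therefore did not set the class apart from pericyte-like cells. Of the 10 mesenchymal markers, 9 were detected in the cortical surface cells of the class, with a sum of 1543 to 2038 CPM, and all 10 in the bone-associated cells, with 5073 to 8353 CPM. The 9 pericyte markers summed to 17307 to 19609 CPM with all detected and to 10085 to 11506 CPM with 8 detected, against 24126 to 28821 CPM in cortical surface pericyte-like cells. The 9 VSMC markers, all detected on both sides, summed to 5139 to 9031 CPM in the cortical surface and 12668 to 17192 CPM in the bone-associated cells. The cells compared thus differed in markers of neighbouring classes, and the part of this in the ligand differences was not tested. The sums of immediate-early genes were 5417 to 30959 CPM in the cortical surface and 33226 to 36828 CPM in the bone-associated cells. Their part in the differences was not tested. The counts were 8 with cortical surface libraries 1 and 2 alone and 7 with libraries 3 and 4 alone.

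**Figure D5:**
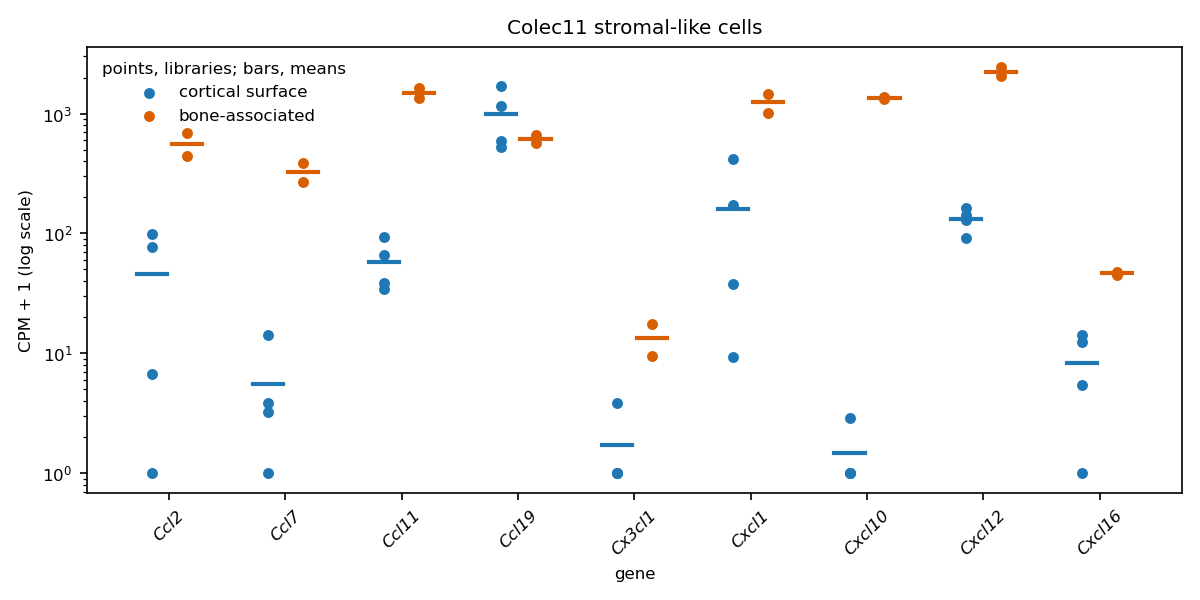
Chemokine ligands in Colec11 stromal-like cells, as CPM plus 1 on a log axis, with a point per library (4 cortical surface, 2 bone-associated) and a bar at each mean. Bone-associated points lie above all cortical surface points for every ligand shown except Ccl19, whose points overlap.

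The 250 bases before the start sites of 5 ligands are shown because the first 4 of them were called in several classes or by the largest ratios and hold matches to the NF-kB consensus, and the last, Cxcl12, was called in several classes and holds none in this window. The sequences are RefSeq's for GRCm38.p6 and run 5′ to 3′ on the gene's strand. Capitals mark the matches, which were searched on both strands as the consensus of 10 bases, and overlapping matches merge.

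Cxcl1 (chr5:90890995-90891244, plus strand): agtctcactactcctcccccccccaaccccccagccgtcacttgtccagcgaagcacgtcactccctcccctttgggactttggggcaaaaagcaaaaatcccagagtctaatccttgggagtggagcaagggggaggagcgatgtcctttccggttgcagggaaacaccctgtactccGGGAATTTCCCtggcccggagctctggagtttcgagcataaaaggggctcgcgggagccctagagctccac
Cxcl2 (chr5:90903649-90903898, plus strand): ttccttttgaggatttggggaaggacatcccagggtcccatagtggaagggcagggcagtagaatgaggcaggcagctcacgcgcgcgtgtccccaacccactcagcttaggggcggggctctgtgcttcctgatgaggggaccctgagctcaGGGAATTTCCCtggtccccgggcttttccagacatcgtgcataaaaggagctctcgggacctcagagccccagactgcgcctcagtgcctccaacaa
Cxcl10 (chr5:92348890-92349139, minus strand): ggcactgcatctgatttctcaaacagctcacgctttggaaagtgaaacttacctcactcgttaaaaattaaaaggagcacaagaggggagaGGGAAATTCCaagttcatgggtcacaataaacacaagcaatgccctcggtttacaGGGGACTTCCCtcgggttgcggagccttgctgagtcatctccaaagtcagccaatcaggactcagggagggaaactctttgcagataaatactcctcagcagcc
Ccl1 (chr11:82179813-82180062, minus strand): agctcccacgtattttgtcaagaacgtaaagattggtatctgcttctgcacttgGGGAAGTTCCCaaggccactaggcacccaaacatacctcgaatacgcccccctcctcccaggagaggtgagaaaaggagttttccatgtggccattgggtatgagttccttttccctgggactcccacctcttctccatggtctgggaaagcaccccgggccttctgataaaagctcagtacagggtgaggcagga
Cxcl12 (chr6:117168285-117168534, plus strand): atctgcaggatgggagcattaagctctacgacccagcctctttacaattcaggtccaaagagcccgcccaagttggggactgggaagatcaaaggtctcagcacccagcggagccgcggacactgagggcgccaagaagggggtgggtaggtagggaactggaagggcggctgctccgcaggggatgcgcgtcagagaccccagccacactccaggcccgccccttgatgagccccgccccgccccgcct

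Matches begin 71 and 70 bases before the Cxcl1 start, 97 and 96 before Cxcl2, 159, 104 and 103 before Cxcl10, and 196 and 195 before Ccl1. Promoters were at hand for 38 of the 50 genes, of which 9 hold a match (Cxcl1, Cxcl2, Cxcl3, Cxcl10, Ccl1, Ccl9, Ccr1, Ccr3 and Ccr6), against 8.23% of 27025 symbols. A match is a stretch of letters and not a measured binding site.

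Mesenchymal-like cells, the fibroblasts of the membranes, had 4 of 12 chemokine genes called, at a background of 13.7%. Cxcl14 was at 0, 1.85, 4.42 and 0 CPM in cortical surface libraries 1 to 4 and 80.5 and 164 CPM in bone-associated libraries 1 and 2 (77.4-fold, adjusted p = 1.44e-07, edgeR), and Cxcl1 was at 0, 24, 8.84 and 0 against 60.4 and 92.5 CPM (5.79-fold, adjusted p = 0.002). Both were higher in the bone-associated libraries without overlap. Cxcl14 was found in 33.0% of the bone-associated cells, but a single cell held 39.9% of its UMIs there, so the size of its fold is uncertain. Ccl19 went the other way, at 208, 106, 31 and 14.9 against 23.8 and 31.3 CPM (3.7-fold, adjusted p = 0.017). Its groups overlapped, and with cortical surface libraries 3 and 4 alone the log2 fold change was -0.18, so the call rests on libraries 1 and 2. The count was 5 with libraries 1 and 2 alone, 4 with libraries 3 and 4 alone and 2 without bone-associated library 2. Mesenchymal markers summed to 6845 to 12612 CPM in the cortical surface and 23716 to 33565 CPM in the bone-associated cells, with all 10 detected in both. Pericyte markers summed to 3356 to 7296 CPM with 9 of 9 detected in the cortical surface and to 273 to 293 CPM with 8 detected in the bone-associated mesenchymal-like cells, and their part in these differences was not tested.

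Ccr9, the receptor of Ccl25 in gut-homing lymphocytes, was the fourth call. Cortical surface mesenchymal-like cells held 43.2, 45, 31 and 37.2 CPM and the bone-associated ones had no UMI, which makes the level at least 61.4-fold higher in the former (floor of 3 counts over the bone-associated libraries). Pericyte-like cells showed the same, with 37.9, 49.9, 23.7 and 54.3 CPM against no UMI (at least 7.5-fold). The Ccr9 gene model (chr9:123678439-123784330, plus strand) shares 447 bases with Slc6a20a on the opposite strand and 22608 bases with Gm17200 on its own strand. Slc6a20a, an amino acid transporter, was at 938 ± 244 CPM (SD, n = 4) in the same mesenchymal-like cells and 539.7 ± 151 CPM (SD, n = 4) in the pericyte-like cells, and whether the counting used strand is not stated in the sources used here, so the Ccr9 level is uncertain. In ILC2-like cells of cortical surface libraries 3 and 4, Ccr9 was at 33.5 and 133 CPM.

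Pericyte-like cells, the mural cells of capillaries, had 4 of 7 chemokine genes called (background 6.01%). Cxcl12 was at 179.8, 155, 79.2 and 125 CPM in the cortical surface and 825 and 358 CPM in the bone-associated libraries (4.27-fold, adjusted p = 1.56e-05, edgeR). Cxcl1 had no UMI in the cortical surface cells and 58.2 and 104 CPM in the bone-associated ones, at least 34.8-fold higher. Ccl11 was at 9.46, 22.4, 7.92 and 13.6 against 165 and 41.5 CPM (5.54-fold, adjusted p = 0.004). No groups overlapped, and the count was 4 with cortical surface libraries 1 and 2 alone and with 3 and 4 alone. Mesenchymal markers summed to 722 to 984 CPM with 7 of 10 detected in the cortical surface cells and to 2073 to 2445 CPM with 9 detected in the bone-associated ones.

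VSMC-like cells, the contractile cells of arteries, had 3 of 4 chemokine genes called (background 5.6%), in cortical surface libraries 1 and 2 against both bone-associated libraries. Ackr3, which scavenges Cxcl12, was at 113 and 104 CPM in the cortical surface and 11.5 and 10.3 CPM in the bone-associated libraries (9.41-fold higher in the former, adjusted p = 6.08e-06, edgeR). Its ligand Cxcl12 was at 15.4 and 8.63 against 137 and 131 CPM (12.2-fold lower, adjusted p = 6e-06). Scavenger and ligand thus moved in opposite directions, each without overlap. Cxcl1 was at 0.735 and 25.9 against 93.4 and 131 CPM (7.7-fold, adjusted p = 0.005).

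Endothelial-like cells as 1 class had 2 of 5 chemokine genes called (background 6.34%). Cxcl1 was at 47.5, 32.3, 8.61 and 6.01 against 116 and 74.9 CPM (3.81-fold, adjusted p = 0.000879, edgeR) and Cxcl16 at 9.2, 4.97, 8.61 and 6.01 against 15.1 and 15.9 CPM (2.46-fold, adjusted p = 0.018), both higher in the bone-associated libraries. The count was 2 with cortical surface libraries 1 and 2 alone and 1 with libraries 3 and 4 alone, where Cxcl16 was lost. DESeq2 called neither gene. Subtypes of the class were fitted on their own after the data had been seen. Slc38a5, fixed as a marker of the Plvap subtype, led the cortical surface Plvap cluster and the bone-associated barrier capillary cluster, so the subtypes of the 2 preparations are not the same clusters.

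Arterial endothelial-like cells had 3 of 6 called (background 4.19%). Cxcl12 was at 159.6, 66.5 and 264 CPM in cortical surface libraries 1, 2 and 4 and 1895 and 1218 CPM in the bone-associated libraries (9.83-fold, adjusted p = 2.18e-07, edgeR). Ackr3 was at 66.5, 81.8 and 50.3 against 17.5 and 25.1 CPM (2.88-fold lower in the bone-associated libraries, adjusted p = 0.034). Scavenger and ligand again had opposite directions, as in VSMC-like cells. Cxcl1 was at 20.0, 15.3 and 6.29 against 79.8 and 34.6 CPM (adjusted p = 0.042) and was called with neither cortical surface libraries 1 and 2 alone nor library 4 alone. The count was 2 and 1 in those fits, and 1 without cortical surface library 1, without library 2 or without bone-associated library 1.

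Plvap endothelial-like cells, the fenestrated or venous vessels, had 6 of 8 called (background 12.9%). Cxcl12 was at 172, 166, 285 and 243 against 1148 and 871 CPM (4.71-fold, adjusted p = 2.3e-09, edgeR), and Cxcl10 at 34.4, 37.8, 0 and 7.15 against 166 and 149.9 CPM (6.79-fold, adjusted p = 7.6e-08). Cxcl1 rose 3.14-fold (adjusted p = 0.000504) and Cxcl16 4.49-fold (adjusted p = 0.003) in the same direction, toward the bone-associated libraries. Ackr1 was at 193, 141, 37.2 and 50 CPM in the cortical surface and 11.6 and 16 CPM in the bone-associated libraries (7.27-fold lower in the latter, adjusted p = 8.31e-07). Ccl25 was at 12.9, 28, 6.2 and 31 against 3.86 and 7.75 CPM, which overlapped (adjusted p = 0.008). The count was 5 with cortical surface libraries 1 and 2 alone and with 3 and 4 alone. Ackr1 shares 493 bases of gene model with Cadm3 on its own strand, which makes its level uncertain.

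Barrier capillary endothelial-like cells had 2 of 6 called (background 2.4%). Ackr1 had no UMI in the 4 cortical surface libraries and 108 and 115 CPM in the bone-associated ones, at least 51-fold higher. Cxcl10, with 1 cortical surface UMI, was at 238 and 227 CPM in the bone-associated libraries, a counted ratio of 318-fold (95% exact counting interval 56.5 to 12588). Cxcl12 went against the other subtypes, at 2516, 1746, 2639 and 2109 CPM in the cortical surface and 1576 and 832 CPM in the bone-associated libraries (log2 fold change 0.81 ± 0.30 (SE), adjusted p = 0.21, edgeR), which was no call. The count was 4 with cortical surface libraries 1 and 2 alone and 3 with libraries 3 and 4 alone. The difference between subtypes was tested in 1 fit with the library as a block. For Cxcl12 the log2 fold change of barrier capillary minus arterial endothelial-like cells was 4.13 ± 0.29 (SE, adjusted p = 2.91e-19, edgeR, 5 libraries), and minus Plvap endothelial-like cells 3.10 ± 0.21 (SE, adjusted p = 1.05e-12, 6 libraries). For Ackr1, Plvap and barrier capillary endothelial-like cells also differed (adjusted p = 1.03e-13, edgeR, 6 libraries), a difference without a fitted size because cortical surface barrier capillary endothelial-like cells had no UMI. These fits were chosen after the data had been seen. The subtypes of the 2 preparations are not the same clusters, so the subtype differences may compare unlike cells under 1 name.

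Cxcl1 was called in 6 of the 7 classes in which it was tested, mesenchymal-, endothelial-, pericyte-, VSMC-, Colec11 stromal- and ILC2-like cells, always higher in the bone-associated libraries. In border macrophage-like cells it was at 116, 98.7, 3.65 and 7.09 against 118 and 467 CPM without a call (adjusted p = 0.093, edgeR). Immediate-early genes summed to 3421 to 6998 CPM in cortical surface and 10234 to 10829.6 CPM in bone-associated mesenchymal-like cells, 5136 to 19995 and 22135 to 25859 CPM in endothelial-like cells, 2768 to 22947 and 16009 to 25973 CPM in pericyte-like cells, and 31992 to 40132 and 30013 to 30489 CPM in VSMC-like cells. DESeq2 called Cxcl1 in pericyte-like cells and in none of the other 5 classes. The part of the immediate-early genes in the Cxcl1 differences was not tested.

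Monocyte-like cells, recruited from blood, had 4 of 12 chemokine genes called (background 7.28%), all higher in the bone-associated libraries. Beside Cxcr4, Ccr1 was at 0, 0, 22.5 and 20.1 against 114 and 166 CPM (10.1-fold, adjusted p = 0.002, edgeR) and Ccl2 at 44.9, 28.5, 9.39 and 21.1 against 128 and 222 CPM (9.52-fold, adjusted p = 0.000832), without overlap. The count was 2 without bone-associated library 1 and 1 without bone-associated library 2. Cortical surface library 1 held 12 of the cells, and the 9 monocyte markers summed to the lowest value there, over a range of 808 to 6945 CPM in the 4 cortical surface libraries. Cx3cr1 was at 510.2 ± 329 CPM (SD, n = 4) and 215 ± 101 CPM (SD, n = 2), which overlapped. The counts were 5 with cortical surface libraries 1 and 2 alone and 7 with libraries 3 and 4 alone.

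Dendritic-like cells, which carry antigen to T cells, had 4 of 19 called (background 4.88%). Cxcl16 was at 216, 165, 67.5 and 63 against 347 and 377 CPM (3.22-fold, adjusted p = 0.024, edgeR), higher in the bone-associated libraries like Cxcr4. Cx3cr1 was at 124, 60.8, 128 and 86.6 against 14.9 and 26.4 CPM (4.2-fold higher in the cortical surface, adjusted p = 0.004). Cxcr3 had 3 bone-associated UMIs and was 16.6-fold (95% exact counting interval 5.25 to 84.3) higher in the cortical surface, by counts. Ccr7, the receptor of migrating dendritic cells, was at 359.7, 0, 0 and 16.5 against 226 and 621 CPM without a call (adjusted p = 0.21). Ccl4 was at 762 ± 421 CPM (SD, n = 2) in the bone-associated cells, against 282 ± 211 CPM (SD, n = 4) in the cortical surface, and was not called. Ccr2 had an adjusted p of 0.026, but its log2 fold change of 1.22 ± 0.29 (SE) was under the threshold. The counts were 3 with cortical surface libraries 1 and 2 alone, 6 with libraries 3 and 4 alone, and 2 without either bone-associated library.

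Neutrophil-like cells had 5 of 7 called (background 10.9%), all higher in the bone-associated libraries, from 2 libraries a side. Cxcl2 was at 33.6 and 133 CPM in cortical surface libraries 3 and 4 and 2202 and 1302 CPM in bone-associated libraries 1 and 2 (17.4-fold, adjusted p = 2.67e-07, edgeR). Ccl3 was at 28 and 24.9 against 184 and 507 CPM (13.3-fold, adjusted p = 3.28e-06). Ccl4 rose 8.6-fold (adjusted p = 9.4e-05) and Ccl6 2.93-fold, from 779 and 565 to 2562 and 1661 CPM (adjusted p = 0.008). Cxcr2, the neutrophil receptor, was not called (adjusted p = 0.32). The count was 3 without either bone-associated library. Immediate-early genes summed to 4205 to 5579.9 CPM in the cortical surface and 13688 to 16466 CPM in the bone-associated cells, and their part was not tested. Only cortical surface libraries 3 and 4 entered this comparison and those of ILC2-like and gamma-delta T cell-like cells. These libraries were low in immediate-early genes in most other classes too. T cell-like cells held 6817, 9630, 2074 and 2099 CPM in cortical surface libraries 1 to 4, and NK cell-like cells 8555, 11544, 2480 and 2535 CPM. Mesenchymal-like cells, at 3421, 6998, 5169 and 3560 CPM, did not show this split. Its part in the calls was not tested.

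NK cell-like cells had 3 of 9 called (background 4.46%). Cxcr6 was at 278, 327, 249 and 163 CPM in cortical surface libraries 1 to 4 and 0 and 9.11 CPM in bone-associated libraries 1 and 2 (32.3-fold higher in the former, adjusted p = 9.97e-05, edgeR). Cxcr3 was at 139, 209, 144 and 86.1 against 27.2 and 23.7 CPM (5.31-fold higher in the cortical surface, adjusted p = 0.006). Both tissue-homing receptors were thus higher in the cortical surface while Cxcr4 was higher in the bone-associated libraries, and no groups overlapped. Ccl3 had an adjusted p of 0.036, at 593 ± 127 CPM (SD, n = 4) against 229 ± 141 CPM (SD, n = 2), with a log2 fold change of 1.22 ± 0.32 (SE) under the threshold. The count was 4 with cortical surface libraries 1 and 2 alone and 3 with libraries 3 and 4 alone. The 12 T cell markers summed to 1487 to 2006 CPM with all detected in the cortical surface and to 932 to 1239 CPM with 9 detected in the bone-associated NK cell-like cells.

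ILC2-like cells, innate lymphocytes that make type 2 cytokines, had 6 of 8 called (background 5.43%), all higher in the bone-associated libraries. Ccl1, the ligand of Ccr8, was at 0 and 29.1 CPM in cortical surface libraries 3 and 4 and 1618 and 2118 CPM in bone-associated libraries 1 and 2 (100.3-fold, adjusted p = 2.05e-08, edgeR). Its receptor Ccr8 was at 22.3 and 4.16 against 58.1 and 53.1 CPM, 5.98-fold (95% exact counting interval 1.96 to 29.7) by counts, with 3 UMIs in the cortical surface. Ligand and receptor were both highest in this class. Cxcl2 was at 22.3 and 49.9 against 447 and 958 CPM (19.4-fold, adjusted p = 5.55e-06), Cxcl1 had no cortical surface UMI and 21.4 and 160.3 CPM (at least 13.8-fold higher), and Cxcr6 was at 268 and 354 against 890.2 and 1179 CPM (3.67-fold, adjusted p = 0.000213). Cxcl10 was at 471 and 19.4 CPM in the bone-associated cells, with 50.9% of the UMIs in 1 cell. Cxcr6 therefore moved in opposite directions in NK cell- and ILC2-like cells. In 1 fit over 4 libraries, with the library as a block, the log2 fold changes differed by 6.62 ± 0.48 (SE, adjusted p = 1.03e-39, edgeR). That fit was run because the calls were already known to go in opposite directions, so its p is no independent support. Immediate-early genes summed to 4408 to 6230.2 CPM in the cortical surface and 17568 to 18811 CPM in the bone-associated ILC2-like cells, and their part was not tested. The 9 ILC2 markers summed to 1719 to 2165 CPM with 8 detected in the cortical surface and to 4946 to 6126 CPM with all detected in the bone-associated cells, so the cells compared also differed in the genes that name the class.

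T cell-like cells had 2 of 10 called (background 7.65%), Cxcr4 and Ccr4. The 9 gamma-delta T cell markers summed to 29.1 to 332 CPM with 7 detected in the cortical surface and to 939.7 to 1404 CPM with 8 detected in the bone-associated T cell-like cells, and their part was not tested. Ccr4, a receptor of Ccl17 and Ccl22 on helper and regulatory T cells, was at 6.91, 7.28, 1.43 and 0.790 against 45.9 and 18.1 CPM (14.3-fold higher in the bone-associated libraries, adjusted p = 0.003, edgeR). These cortical surface values rest on very few UMIs, so the size of the fold is uncertain. Ccr4 was found in 10.6% of the bone-associated cells, just over the filter of 10%. It was not called with cortical surface libraries 1 and 2 alone. The count was 1 with those libraries, 2 with libraries 3 and 4 alone and 1 without cortical surface library 3. Ccr7 and Cxcr3 had adjusted p of 0.007 and 0.044 but log2 fold changes of -1.25 ± 0.25 and 0.98 ± 0.30 (SE), under the threshold. Gamma-delta T cell-like cells had 1 of 5 called (background 4.52%), Cxcr4, and their Cxcr6 was not called (adjusted p = 0.25). Immediate-early genes summed to 2388 to 2554 CPM in the cortical surface and 9200.0 to 11900.0 CPM in the bone-associated gamma-delta T cell-like cells, and their part was not tested. The count was 2 without cortical surface library 4 or without bone-associated library 1.

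B cell-like cells had 0 of 3 called (background 4.41%) by edgeR and 0 by DESeq2, with 1 gene at an unadjusted p under 0.05. The count was 2 with cortical surface libraries 3 and 4 alone and 1 without cortical surface library 2. Their Cxcr4, Cxcr5 and Ccr7 levels overlapped between preparations.

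Macrophages of the cortical surface were compared within the same 4 libraries, with the library as a block. Against microglia-like cells, the macrophages of the brain tissue itself, border macrophage-like cells had 12 of 16 chemokine genes called, 9 higher in border macrophage-like and 3 in microglia-like cells (background 16.5%). The count was 12 with libraries 1 and 2 alone and with 3 and 4 alone. The monocyte-attracting ligands separated the classes: Ccl7 was at 952, 1633, 371 and 749 CPM in border macrophage-like and 0, 4.52, 0 and 0.417 CPM in microglia-like cells (741-fold, adjusted p = 6.01e-19, edgeR). Ccl8 was at 88.5, 202, 152 and 413 CPM in the former and had no UMI in the latter (at least 280.0-fold higher). Ccl2 was at 997, 1283, 197 and 367 against 43.4, 109, 66.7 and 15.8 CPM (12.5-fold, adjusted p = 1.2e-10). All groups stood apart in each of these 3.

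Ccl24 was 62.4-fold higher in border macrophage-like cells, with 16.7, 8.14, 10.8 and 13.7 CPM in microglia-like cells (adjusted p = 3.11e-18, edgeR), and Ccl12 11.3-fold higher, with 43.4, 130.3, 74.3 and 88.3 CPM there (adjusted p = 9.12e-16). The neutrophil-attracting Cxcl2 was 169-fold higher in border macrophage-like cells (adjusted p = 8.25e-17), and Cxcl1, with 1 microglial UMI, 409-fold (95% exact counting interval 73 to 16174) higher by counts. The receptor Ccr1 was at 199.7, 289, 239 and 245 CPM in border macrophage-like and 13.4, 21.7, 23.7 and 15 CPM in microglia-like cells (15-fold, adjusted p = 2.45e-15), and Cxcr3 was 33.7-fold higher in the former (adjusted p = 1.33e-10). Microglia-like cells were higher in Cx3cr1 (9.46-fold, adjusted p = 3.9e-18), whose values did not overlap. Ccl4 was higher in microglia-like cells as well, at 1776, 1169, 567 and 636 CPM (3.28-fold, adjusted p = 4.03e-09), with overlap between the groups. Cxcl16 was not called, at 70.3 and 67.4 CPM. Microglia markers, 9 of 9 detected, summed to 2156 to 2971 CPM in border macrophage-like and 20440.1 to 25472 CPM in microglia-like cells.

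MHC class II macrophage-like cells, which present antigen, differed from border macrophage-like cells in 14 of 19 chemokine genes, 6 higher in border macrophage-like and 8 in MHC class II macrophage-like cells (background 13.5%). The count was 14 with libraries 1 and 2 alone and 15 with libraries 3 and 4 alone. These values share the border macrophage-like cells with the comparison above. Ccr2 was at 2.11, 1.23, 23.7 and 2.84 CPM in border macrophage-like and 875, 850.0, 1110.2 and 922 CPM in MHC class II macrophage-like cells (268-fold, adjusted p = 3.63e-14, edgeR). Cxcl14 was at 0, 1.64, 1.83 and 1.42 against 63, 124, 122 and 138 CPM (115-fold, adjusted p = 5.29e-13). Both separated the classes in every library. Cxcl16 (7.55-fold, adjusted p = 3.07e-12), Cxcr4 (5.07-fold, adjusted p = 2.11e-06), Ccl6 (4.81-fold, adjusted p = 4.06e-11), Cx3cr1 (2.74-fold, adjusted p = 1.14e-09) and Ccl4 (6.22-fold, adjusted p = 3.72e-08) were also higher in MHC class II macrophage-like cells, Ccl4 with overlap.

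Border macrophage-like cells were the higher ones in Ccl7 (65.9-fold, adjusted p = 3.21e-13, edgeR), with 14, 38.5, 1.59 and 1.0 CPM in MHC class II macrophage-like cells. Ccl24 and Ccl8, with 2 UMIs each in the latter, were 790.4-fold (95% exact counting interval 219 to 6529) and 213-fold (95% exact counting interval 58.9 to 1764) higher by counts. Ccl2 (7.02-fold, adjusted p = 2.82e-08) and Ccl12 (2.97-fold, adjusted p = 0.0001) were higher too, but in cortical surface library 2 MHC class II macrophage-like cells reached 333 and 807 CPM and overlapped with the other class. Cxcr3 was 8.31-fold higher (adjusted p = 1.01e-05). Ccr1 (1.27 ± 0.15, log2 fold change and SE) and Ccl9 (-1.22 ± 0.15) had adjusted p of 7.73e-07 and 9.17e-07 and stayed under the fold threshold.

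Genes of receptor signalling and of chemokine processing were read from a list of 21 G proteins, arrestins, kinases, regulators and proteases. Rgs1 and Rgs2, which shorten G protein signals, moved most often. In ILC2-like cells Rgs1 and Rgs2 were higher in the bone-associated libraries among 16 tested (background 5.43%, list median log2 fold change -0.69, all genes 0.01), and likewise in T cell-like (18 tested, background 7.65%, -0.11 against 0.06) and gamma-delta T cell-like cells (20 tested, background 4.52%, -0.28 against -0.02). Border macrophage-like cells had 4 of 19 higher in the bone-associated libraries (Rgs1, Grk3, Ptk2b and Pik3r5, background 6.66%, -0.35 against 0.03) and none higher in the cortical surface. Dendritic-like cells had Rgs1 alone among 20 tested (background 4.88%). Rgs2 was the one gene higher in bone-associated pericyte-like and Colec11 stromal-like cells, each with 10 tested (backgrounds 6.01% and 12%), and it was called with Adam17 in VSMC-like cells (11 tested, background 5.6%) and with Elmo1 in Plvap endothelial-like cells (12 tested, background 12.9%). Endothelial-like cells, with 13 tested (background 6.34%), had Rgs2 higher in the bone-associated and Dpp4, the protease that trims several chemokines, in the cortical surface libraries. Barrier capillary endothelial-like cells had Dpp4 alone, higher in the cortical surface, among 14 tested (background 2.4%). Mesenchymal-like cells had Arrb2 and Grk5 higher in the cortical surface among 13 tested, near their background of 13.7%. None of the list was called by edgeR in monocyte-, neutrophil-, NK cell-, B cell- or arterial endothelial-like cells, with 21, 18, 17, 14 and 12 tested, of which 3, 1, 1, 0 and 1 had an unadjusted p under 0.05. Microglia-like cells were higher than border macrophage-like cells in 7 of 19 (Rgs1, Prex1, Grk3, Ptk2b, Adam10, Pik3r5 and Elmo1, background 16.5%), and MHC class II macrophage-like cells in 3 of 19 (Rgs1, Grk3 and Ptk2b, background 13.5%).

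Of 43 textbook pairs of ligand and receptor, 26 had both genes at 50 CPM or more in some group, in the same or in different classes. Among whole classes, Cxcl12 was highest in bone-associated Colec11 stromal-like cells, with cortical surface barrier capillary endothelial-like cells at a like level (2243 and 2253 CPM), Cxcr4 in bone-associated neutrophil-like cells and Ackr3 in cortical surface VSMC-like cells. Cx3cl1 was highest in endothelial-like cells, where the arterial subtype held 134 and 111 CPM in the cortical surface and bone-associated libraries, and Cx3cr1 in cortical surface microglia-like cells. Ccl2 was highest in mast cell-like cells and Ccr2 in MHC class II macrophage-like cells, and these 2 classes came from different preparations. Cxcl1 and Cxcl2 were highest in bone-associated Colec11 stromal-like and border macrophage-like cells, and Cxcr2 in neutrophil-like cells of the cortical surface. Cxcl10 was highest in bone-associated Colec11 stromal-like cells, Cxcl9 in dendritic-like cells, and Cxcr3 in cortical surface T cell-like cells. Whether ligand and receptor cells lay side by side was not measured.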

How the data were processed

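Single-cell RNA of 6 libraries was read from matrices of UMI counts per gene and cell barcode, which the authors deposited unnormalized after Cell Ranger alignment to mm10. The file headers name version 6.1.2, whereas the submitters' processing notes list version 3. Libraries held 8408685 to 56169736 UMIs over 951 to 5602 barcodes. Intervals and floors cover counting error only.

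Barcodes under 500 genes or over 10% mitochondrial UMIs were left out, and 4 to 50 cells per library were removed as doublets by comparison with simulated doublets. Each preparation was clustered (2000 variable genes, 30 components, 15 neighbours, Leiden resolution 1.5) without chemokine, hemoglobin and mitochondrial genes, and clusters were named from marker lists. Free RNA was not corrected. UMIs were summed per class and library (at least 10 cells) and scaled by TMM. The test was the quasi-likelihood one of edgeR, over genes in more than 10% of cells of either group. It shares its estimate of spread over genes. Each SE of a log2 fold change is its absolute value divided by the square root of the test's F value. A call needed a Benjamini-Hochberg adjusted p under 0.05 and a log2 fold change of at least 1.3. Comparisons between classes within libraries had the library as a block, and the fits of a difference between 2 classes were chosen after the data had been seen. The tests were checked on simulated data.

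Genes named are those called, the top 3 ligands and top 3 receptors of each class from 50 CPM, and pairs of ligand and receptor that both reach 50 CPM; further genes were chosen after their values were seen. Of the chemokine genes, 1 is included in counts but not reported here. The genes, lists and classes were chosen with earlier results of these data known. MHC class II macrophage-like cells could not be compared between preparations, since no bone-associated cluster received this name. Whether such cells lay within another bone-associated cluster was not tested. Alternatives were DESeq2, other scalings, gene and cell filters, clusterings, thinning to 1500 UMIs and left-out libraries. Fits with cortical surface libraries 1 and 2 alone or 3 and 4 alone were a further, unplanned split that the labels do not give. Promoters were RefSeq sequences of GRCm38.p6. The tests ran in R 4.3.3 with edgeR 4.0.16, DESeq2 1.42.0 and limma 3.58.1. Clustering used leidenalg 0.10.2 and igraph 0.11.9 on components from scikit-learn 1.9.0, and figures used matplotlib 3.10.9, all in Python 3.11.15 (pandas 2.3.3, scipy 1.17.1, numpy 2.4.6).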

Additional observations from a re-analysis of the deposited data

Results flagged for a closer look

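Among 127 levels with 4 cortical surface libraries, 13 had 1 library far from the other 3 by Dixon's test. Its chance rate of about 1 in 20 assumes normally distributed values, which CPM values need not be, so no excess is read from this count. Library 2 was the high one for Cxcr5 in B cell-like cells (233 CPM, the others 64.5 to 78.3), Ccl3 in MHC class II macrophage-like cells (1004 CPM, the others 273 to 326), Ccr1 in dendritic-like cells (218 CPM, the others 87.1 to 98.4) and Cxcr4 in monocyte-like cells (393 CPM, the others 103 to 149.6). It was also the high one for Ccl4 in pericyte-like cells (426 CPM, the others 0 to 4.73) and Cxcl1 in Plvap endothelial-like cells (65.8 CPM, the others 9.53 to 17.2). Library 1 was the high one for Ccl5 in dendritic-like cells (1891 CPM, the others 0 to 154) and Ackr3 in pericyte-like cells (114 CPM, the others 24.9 to 32.6). Library 3 was the high one for Ccr2 in border macrophage-like cells (23.7 CPM, the others 1.23 to 2.84) and Cxcl16 in Plvap endothelial-like cells (12.4 CPM, the others 3.29 to 4.77). A single UMI made library 2 stand apart for Cxcl10 in Colec11 stromal-like cells (1.89 CPM) and in barrier capillary endothelial-like cells (1.38 CPM), and library 4 for Cx3cl1 in Colec11 stromal-like cells (2.83 CPM), with the other libraries at 0.

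In 4 cases the preparation effect differed between classes in a fit of the difference itself (edgeR, log2 fold changes of cortical surface over bone-associated libraries). These cases were chosen after the separate results had been seen, so the fits are no independent support. Cxcr6 differed by 6.62 between NK cell- and ILC2-like cells, and Ackr1 by a fitted 12.1 between Plvap and barrier capillary endothelial-like cells. The latter had no Ackr1 UMI in the cortical surface libraries, so the fitted value depends on the prior count and is no measured size. Cxcl12 differed by 4.13 between barrier capillary and arterial and by 3.10 between barrier capillary and Plvap endothelial-like cells. The endothelial subtypes were named in each preparation on its own.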

How the results depend on the processing

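Of 1663 alternatives for single called genes, 1529 kept direction and call, 132 kept direction only and 2 reversed: Ccl19 in mesenchymal-like cells with cortical surface libraries 3 and 4 only (log2 fold change -0.18) and Cxcl10 in border macrophage-like cells without bone-associated library 2 (log2 fold change 1.15, against -3.93 without bone-associated library 1). The causes of these reversals were not tested. Settings differed in how much they changed: leaving out hemoglobin genes kept all 95 calls, whereas DESeq2 kept 76 and left 19 with direction only. Calls were also lost more often without 1 bone-associated library than without 1 cortical surface library. DESeq2 gave 2 called genes in mesenchymal-, 0 in endothelial-, 5 in Colec11 stromal-, 1 in arterial and 3 in Plvap endothelial-like cells, against 4, 2, 8, 3 and 6. Without the filter on the share of cells, more genes were tested, and the counts were 17 in mesenchymal-, 9 in endothelial-, 11 in VSMC-, 5 in T cell-, 6 in NK cell-, 2 in B cell-, 5 in gamma-delta T cell-, 13 in ILC2-, 1 in arterial and 12 in Plvap endothelial-like cells. The share of all genes called in those fits is not given here, so these counts cannot be read as more chemokine differences. Thinning to 1500 UMIs gave 2 in mesenchymal-, 0 in endothelial-, 1 in pericyte-, 5 in border macrophage-, 1 in T cell- and 1 in B cell-like cells. At most 20% mitochondrial UMIs gave 7 in mesenchymal- and 9 in monocyte-like cells, no doublet removal 9 in monocyte-like cells, and upper-quartile scaling 1 in endothelial-like cells. Cortical surface libraries 3 and 4 alone gave 1 in endothelial-, 7 in monocyte-, 2 in B cell- and 1 in arterial endothelial-like cells, and libraries 1 and 2 alone 1 in T cell- and 4 in barrier capillary endothelial-like cells.

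Leaving out 1 library at a time gave 2 to 5 in mesenchymal-, 1 to 2 in endothelial-, 3 to 4 in pericyte-, 3 in VSMC-, 6 to 12 in border macrophage-, 1 to 6 in monocyte-, 2 to 5 in dendritic-, 3 to 4 in neutrophil-, 1 to 2 in T cell-, 3 in NK cell-, 0 to 1 in B cell-, 7 to 8 in Colec11 stromal-, 1 to 2 in gamma-delta T cell- and 5 to 6 in ILC2-like cells. It gave 1 to 3 in arterial, 2 to 3 in barrier capillary and 5 to 6 in Plvap endothelial-like cells, 12 against microglia-like and 13 to 15 against MHC class II macrophage-like cells. A side left with 1 library is assumed to vary like the other. The number of genes at 50 CPM was 40 to 41 without 1 library and 38 to 41 under the other settings.

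The replicate numbers are shared across preparations by name only. With the number as a replicate block, the count was 9 in dendritic-, 1 in T cell-, 14 in border macrophage- and 3 in VSMC-like cells, and it stayed within 1.5 times of the unblocked count in the other classes. No paired analysis was possible in neutrophil-, ILC2- and gamma-delta T cell-like cells because their cortical surface libraries 3 and 4 share no number with the bone-associated ones. Clustering each library on its own gave no preparation comparison of border macrophage-, pericyte-, monocyte-, dendritic-, gamma-delta T cell- or ILC2-like cells. With 11 to 16 cells of a class in some libraries and 2 bone-associated libraries, small differences were not detectable.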

Other observations

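Chemokine genes whose symbols do not follow the family pattern gave these values. Pf4, a platelet and macrophage chemokine (Cxcl4), was at 4801, 5156, 6060 and 5753 CPM in cortical surface libraries 1 to 4 and at 2083 and 3522 CPM in bone-associated libraries 1 and 2 in border macrophage-like cells, without overlap. Ccrl2, an atypical receptor that binds chemerin, was at 1281 and 507 CPM in bone-associated neutrophil-like cells, 383 and 615 CPM in mast cell-like cells and 258 and 616 CPM in bone-associated border macrophage-like cells. These genes were not tested here.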
